A study of Homo sapiens with 13 samples.

Results

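A list of 40 genes that act in the G2 phase and in mitosis was followed across the 4 treatment groups of a study of AC16 cells. The genes were chosen by name for their known roles, and all 40 were found among the 63241 gene IDs of the count tables. After the filter on low counts 38 of the 40 remained among 16756 genes tested. The other two, the microtubule bundlers NUSAP1 and PRC1, had at most 16 counts in any library and were not tested. Reads that overlap several genes are counted for no gene in these tables, and whether this bears on NUSAP1 and PRC1 was not tested.

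AC16 is a human line derived from adult ventricular heart cells fused with transformed fibroblasts. FCCP is an uncoupler that carries protons across the inner mitochondrial membrane. Poly-T selected messenger RNA was sequenced from 3 control, 3 FCCP, 4 preconditioning and 3 preconditioning+FCCP libraries, all given the genotype wildtype. Preconditioning refers to optogenetic treatment of mitochondria with a construct named mOpto, and for the control and FCCP groups the labels give neither the presence of mOpto nor exposure to light, nor do they give the dose and time of FCCP.

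Entry into mitosis is driven by the kinase CDK1 bound to B-type cyclins, which CDC25 phosphatases switch on and which the kinases PLK1 and Aurora A help to activate. Chromosomes are then attached to the spindle through kinetochores while a checkpoint holds back the anaphase-promoting complex, whose activation destroys securin and the cyclins and is followed by cytokinesis. Messenger RNA of most of these genes is low in G1, is repressed in resting cells by the DREAM complex through CHR promoter elements, and peaks in G2 and mitosis with the help of FOXM1 and B-MYB, so their levels in a culture are widely used as a measure of proliferation. Adult heart muscle cells rarely divide, whereas AC16 is a proliferating line.

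Libraries held 14970803 to 20636229 gene counts. The labels do not state separate cultures for the replicates, so the p-values rest on the spread between these libraries, and that spread may be technical. Libraries of 1 group differed by more than counting noise, with a lowest chi-square per degree of freedom of 3.14. Control 3, FCCP 1 and preconditioning+FCCP 3 stood apart from their groups, at 73.7 to 155 per degree of freedom against the other libraries of the group, where the pairs without them were at 20.5 to 26.6 in these groups and the preconditioning pairs at 3.14 to 29.05. The share of multi-mapped reads, which align to several places, divided the libraries into a lower-share set of 7, at 3.16% to 5.22%, and a higher-share set of 6, at 7.13% to 11.5%. The cut, at 6.17%, was put at the largest gap between the sorted shares and does not come from a label. All preconditioning libraries, control 3 and preconditioning+FCCP 1 and 2 fell in the lower-share set, and all FCCP libraries, control 1 and 2 and preconditioning+FCCP 3 in the higher-share set. The mitochondrial share of gene counts was 3.00% in control 3 against 9.58% and 8.95% in control 1 and 2. In FCCP 1 it was 6.49% against 1.94% and 1.55% in FCCP 2 and 3. In preconditioning+FCCP 3 it was 6.42% against 1.33% and 2.32% in preconditioning+FCCP 1 and 2. Its part in the members' changes was not tested. The label gives the cells as myocytes, but of 15 cardiomyocyte markers only 4 passed the filter on low counts, their summed level was 3.61 to 12.9 CPM (counts scaled to library size), and the cardiac troponin gene TNNT2 had 0 counts in every library. All 10 fibroblast markers were tested, and their summed level was 5966 to 12967 CPM in control, 7670 to 9708 in FCCP, 7388 to 7949 in preconditioning and 1688 to 3253 in preconditioning+FCCP.

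Promoters are shown here for 9 members, 7 of them among the genes called below. They were chosen after the values were seen. The 100 bases before the start site of each are from the RefSeq promoter table for GRCh38.p14, all on the + strand. Capitals mark the CHR element TTTGAA and the CCAAT box, the binding site of NF-Y, on either strand.
CCNB1 (chr5:69167050-69167149): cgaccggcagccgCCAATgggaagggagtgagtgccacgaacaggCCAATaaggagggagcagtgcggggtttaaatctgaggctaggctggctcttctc
PLK1 (chr16:23678789-23678888): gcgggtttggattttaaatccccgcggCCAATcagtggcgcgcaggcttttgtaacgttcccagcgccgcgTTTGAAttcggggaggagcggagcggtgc
CDC20 (chr1:43358881-43358980): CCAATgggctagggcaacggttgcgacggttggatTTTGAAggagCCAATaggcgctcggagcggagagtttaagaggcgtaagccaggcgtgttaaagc
KIF20A (chr5:138179012-138179111): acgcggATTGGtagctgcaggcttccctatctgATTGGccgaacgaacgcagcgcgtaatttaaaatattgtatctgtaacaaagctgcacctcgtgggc
KIF23 (chr15:69414249-69414348): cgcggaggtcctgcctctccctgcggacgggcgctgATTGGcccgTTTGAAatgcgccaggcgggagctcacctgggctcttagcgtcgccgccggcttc
CCNB2 (chr15:59105046-59105145): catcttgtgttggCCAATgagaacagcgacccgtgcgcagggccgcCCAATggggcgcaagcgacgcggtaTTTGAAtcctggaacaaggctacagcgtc
CDCA8 (chr1:37692416-37692515): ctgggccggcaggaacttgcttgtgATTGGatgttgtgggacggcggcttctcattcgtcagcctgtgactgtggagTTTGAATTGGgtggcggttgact
ANLN (chr7:36389762-36389861): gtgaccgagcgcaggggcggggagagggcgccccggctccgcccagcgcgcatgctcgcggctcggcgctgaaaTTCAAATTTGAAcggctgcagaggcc
KIF11 (chr10:92593030-92593129): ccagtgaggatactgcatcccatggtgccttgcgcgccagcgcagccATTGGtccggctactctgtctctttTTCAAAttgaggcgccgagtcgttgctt

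The CCNB1 and KIF20A windows held 2 CCAAT boxes each and no TTTGAA, the only spelling of the CHR element that was searched. ANLN had the reverse pattern, 2 adjacent matches of TTTGAA on opposite strands and no CCAAT box, and in CDCA8 both motifs shared bases. Of the 40 genes 33 had an entry, with 43 windows of 300 bases (250 before to 50 after the start). TTTGAA, searched on both strands, was in 62.8% of these windows and in 15.2% of all 35116 windows of that length. CCAAT, searched likewise, was in 74.4% of the members' windows and 34.6% of all windows. In the 100 bases before the start these shares were 34.9% against 4.6% for TTTGAA and 58.1% against 18.1% for CCAAT. These are matches of letters only, and TPX2, BUB3, AURKA, FOXM1, UBE2C, TTK and BIRC5 were not matched to an entry.

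All 38 tested genes were expressed in every library. Their summed counts made up 0.619% to 0.834% of a library, and their mean log2 CPM was 7.30 ± 0.16 (SD, n = 3) in control, 7.32 ± 0.03 (n = 3) in FCCP, 7.40 ± 0.07 (n = 4) in preconditioning and 7.14 ± 0.16 (n = 3) in preconditioning+FCCP. The mean was lowest, at 6.98, in preconditioning+FCCP 2 and highest, at 7.47, in preconditioning 1. Control 3 (7.12) lay below control 1 (7.36) and control 2 (7.41) and within the range of the preconditioning+FCCP libraries. In these bulk samples, fewer dividing cells and less of each RNA per cell cannot be told apart. As the map of levels by library shows, the members did not move as a block. Of the chromosomal passenger complex, AURKB had a lower group mean in preconditioning than in control, and INCENP, CDCA8 and BIRC5 had higher ones.

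**Figure D1:**
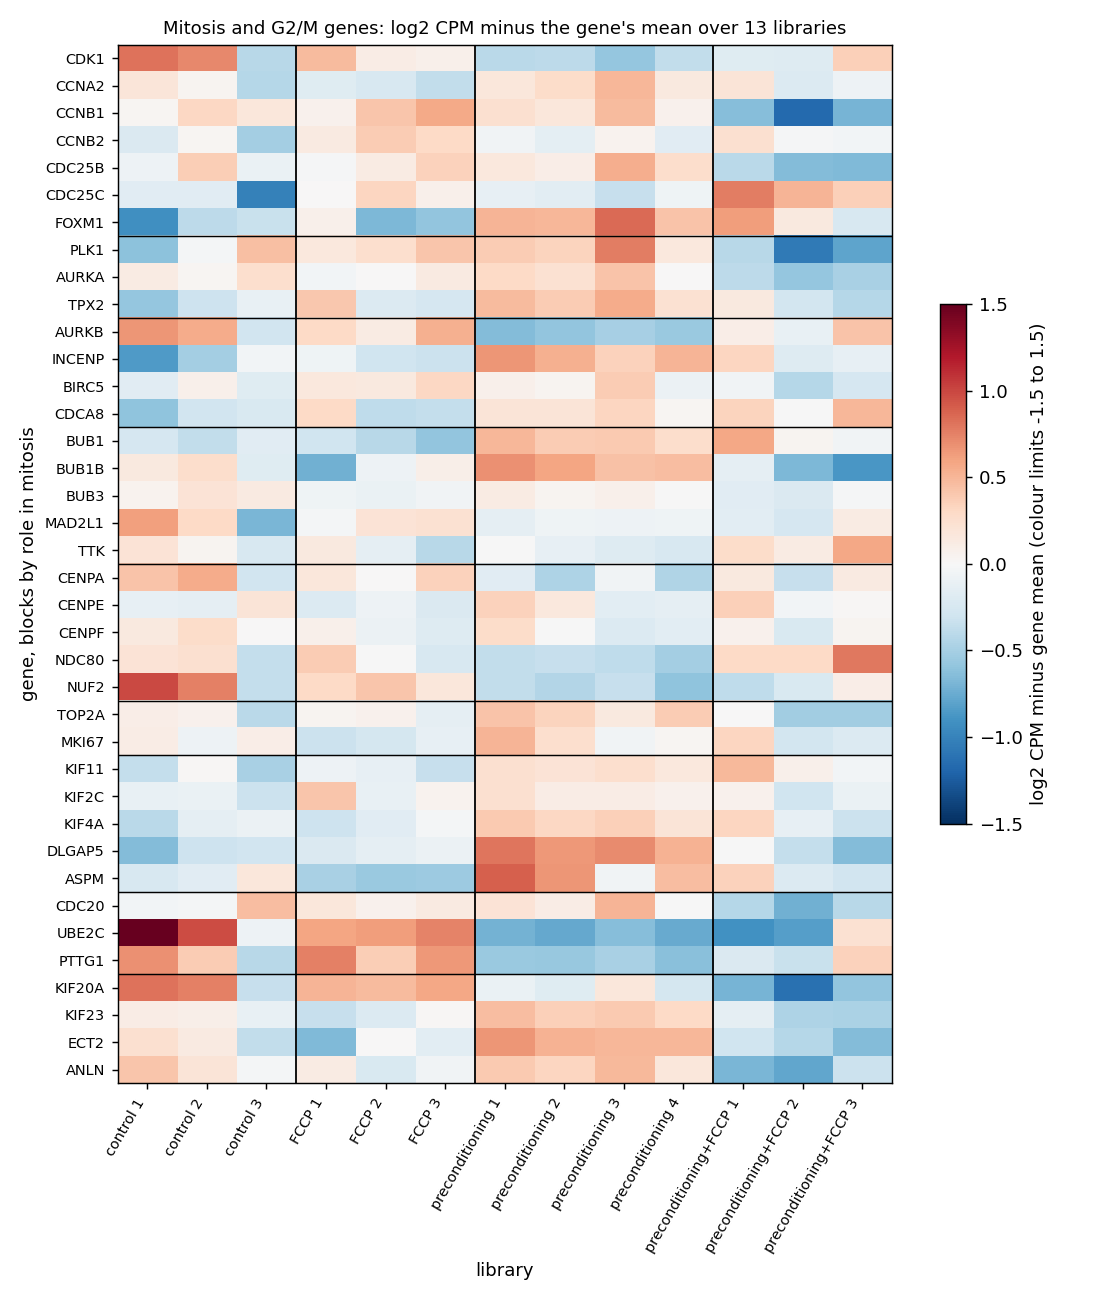
Log2 CPM of the 38 tested mitosis and G2/M genes (rows, in blocks by role) in the 13 libraries (columns), each minus the gene's mean over all libraries; red is above and blue below that mean, with colours limited to 1.5 either way. UBE2C, CDK1, NUF2 and PTTG1 are high in control 1 and 2 and lower in control 3 and the preconditioning libraries, whereas FOXM1, INCENP and DLGAP5 have their highest group means in preconditioning.

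FCCP was first compared with control, in cells without preconditioning. None of the 38 members rose or fell past the threshold (0 called at an adjusted p under 0.05, edgeR's quasi-likelihood test), where 3.52% of all genes tested were called (1.6% higher and 1.92% lower). Their median log2 change was -0.03, against -0.04 over all genes tested, and single values ranged from -0.46 (ASPM) to 0.54 (CDC25C). By edgeR 2 of 38 members had an unadjusted p under 0.05, as did 3448 of all 16756 genes. DESeq2 called 1 member, CCNB2 (7.91% of all genes) and limma-voom 0 (2.28% of all genes). In simulated counts for this comparison, with 200 of 16756 genes changed, 25% of genes changed 2-fold were recovered. Changes of that size or smaller may thus be missed. The share was not obtained for genes at the members' levels, so it does not tell how many member changes would be missed. Without the 3 libraries that stood apart, 4 members were called, all lower, where 18.6% of all genes were called: CDK1 (-0.70), NUF2 (-0.61), UBE2C (-0.61) and ANLN (-0.48), named here because that fit called them.

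The members with the smallest p were CCNB2 and CDC25C. CCNB2, which encodes cyclin B2, had 128, 152 and 104 CPM in control 1 to 3 and 163, 194 and 183 CPM in FCCP 1 to 3. Its FCCP libraries all lay above the controls, with a log2 difference of 0.49 ± 0.17 (SE) and an adjusted p of 0.117. CDC25C, a phosphatase that activates CDK1, was at 33.4, 33.6 and 18.6 CPM in control and 37.8, 47.2 and 39.9 CPM in FCCP, a log2 difference of 0.54 ± 0.22 (adjusted p = 0.171), again without overlap. The groups did not overlap for 4 members with higher FCCP values (BIRC5, CCNB2, CDC25C and DLGAP5), that is 10.5% of 38 where 8.84% of all genes did so, and for 3 with lower values (ASPM, BUB3 and MKI67), where 10.4% of all genes did so. The 5 genes followed in every comparison did not pass: CDK1 at -0.24 ± 0.26, its partner CCNB1 at 0.18 ± 0.19, the transcription factor FOXM1 at 0.17 ± 0.25, the proliferation marker MKI67 at -0.28 ± 0.20 and the checkpoint protein BUB3 at -0.21 ± 0.14, with adjusted p from 0.435 to 0.751.

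The effect of preconditioning without FCCP was examined next. Here the list split: 7 members rose, 5 fell and 26 did not pass. The genes that rose were DLGAP5, FOXM1, INCENP, TPX2, BUB1, CDCA8 and KIF4A, with log2 changes of 0.52 to 1.11. Those that fell were UBE2C, NUF2, AURKB, CDK1 and PTTG1, with changes of -1.67 to -0.84. The 12 calls are 31.6% of the members, where 23.6% of all genes tested were called, and the members' median change was 0.18 against -0.02 over all genes. Rises made up 18.4% of members against 10.5% of all genes, and falls 13.2% against 13% of all genes.

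Among the genes that rose, DLGAP5, a spindle protein (also HURP) that stabilises kinetochore fibres, had 38.5, 49.1 and 49.8 CPM in control 1 to 3 and 105, 95.3, 99.4 and 86.8 CPM in preconditioning 1 to 4. Every preconditioning library stood above every control, and the log2 change was 1.08 ± 0.17 (adjusted p = 0.00198). FOXM1, which drives transcription of G2/M genes, had 115, 167 and 173 CPM in control and 310.2, 309, 394 and 292 CPM in preconditioning, also without overlap (1.11 ± 0.24, adjusted p = 0.00605). INCENP, the scaffold of the chromosomal passenger complex, rose from 53.7, 67.9 and 93.6 CPM to 153, 140.1, 123 and 138 CPM (0.95 ± 0.20, adjusted p = 0.00461). TPX2, the activator of Aurora A (0.73 ± 0.21), the checkpoint kinase BUB1 (0.65 ± 0.17), the passenger subunit CDCA8 (0.55 ± 0.19) and the chromokinesin KIF4A (0.52 ± 0.17) rose less, each without overlap between the groups.

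The genes that fell had controls that were spread widely. UBE2C, the ubiquitin-conjugating enzyme of the anaphase-promoting complex, had 1072, 733 and 353 CPM in control and 228, 218, 239 and 222 CPM in preconditioning, a log2 change of -1.67 ± 0.31 (adjusted p = 0.00302). Control 1 was far above control 3, yet all controls lay above all preconditioning libraries. CDK1 had 415, 388 and 176 CPM in control and 178, 179, 158 and 183 CPM in preconditioning (-0.90 ± 0.24, adjusted p = 0.0159), so that control 3 sat among the preconditioning libraries. NUF2, an outer kinetochore subunit that binds microtubules, showed the same order, with 208, 176 and 81.5 CPM in control and 80.6, 76.7, 82.5 and 68.9 CPM in preconditioning (-1.01 ± 0.24, adjusted p = 0.0083). AURKB, the kinase of the passenger complex, was at 314, 289.9 and 161 CPM in control and 125, 131, 139 and 135 CPM in preconditioning (-0.94 ± 0.21, adjusted p = 0.00626). It fell while 2 of its 3 partners in that complex, INCENP and CDCA8, rose, and the third, BIRC5, was at 0.20 ± 0.16. PTTG1, which encodes securin, fell by 0.84 ± 0.23 on the log2 scale (adjusted p = 0.0158), from 372, 301 and 174 CPM to between 150.1 and 166 CPM. CCNB1 (0.07 ± 0.18), MKI67 (0.16 ± 0.18) and BUB3 (-0.08 ± 0.13) did not pass.

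The groups did not overlap for 13 members with higher preconditioning values, 34.2% of 38 where 19.4% of all genes did so, and for 3 with lower values, where 17.3% did so. The falls of CDK1, NUF2 and PTTG1 were seen against control 1 and 2, which belong to the higher-share set, and were near 0 or small against control 3, which shares the lower-share set with all preconditioning libraries. Within the lower-share set, where control 3 is the one control and is taken to vary like the preconditioning libraries, the change was -0.02 for CDK1, -0.08 for NUF2, -0.15 for PTTG1 and -0.29 for AURKB, none of them called. Of the 12 genes, DLGAP5 (0.96), FOXM1 (0.91) and UBE2C (-0.64) kept their call there, and 10 members were called in all, 9 of them higher, where 21% of all genes were called. With the set as a term in the fit, DLGAP5 (0.86, adjusted p = 0.0297) and UBE2C (-0.73, adjusted p = 0.0411) were the 2 members called, where 2.74% of all genes were called. With library totals as the only scaling the split was 13 higher and 5 lower (21.9% of all genes called), and the median over all genes moved from -0.02 to 0.09. Without the 3 libraries that stood apart 20 members were called, 11 higher and 9 lower, where 49.7% of all genes were called. That fit leaves only higher-share controls and lower-share preconditioning libraries, so it cannot separate preconditioning from the set. Leaving out control 1, control 2 or control 3 gave 5, 7 and 18 called members, where 9.33%, 11.6% and 35.9% of all genes were called. FOXM1, INCENP, DLGAP5, AURKB and UBE2C were called without each library in turn. NUF2 lost its call without control 1, CDK1, PTTG1 and BUB1 lost theirs without control 1 or control 2, TPX2 without control 1, control 2 or preconditioning 1, and CDCA8 and KIF4A were called in 5 and 7 of 13 such fits. The multi-mapped share thus moved with these calls, and so did the mitochondrial share of gene counts, at 9.58% in control 1, 8.95% in control 2, 3.00% in control 3 and 1.00% to 1.85% in the preconditioning libraries. The part of the mitochondrial share in these calls was not tested.

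**Figure D2:**
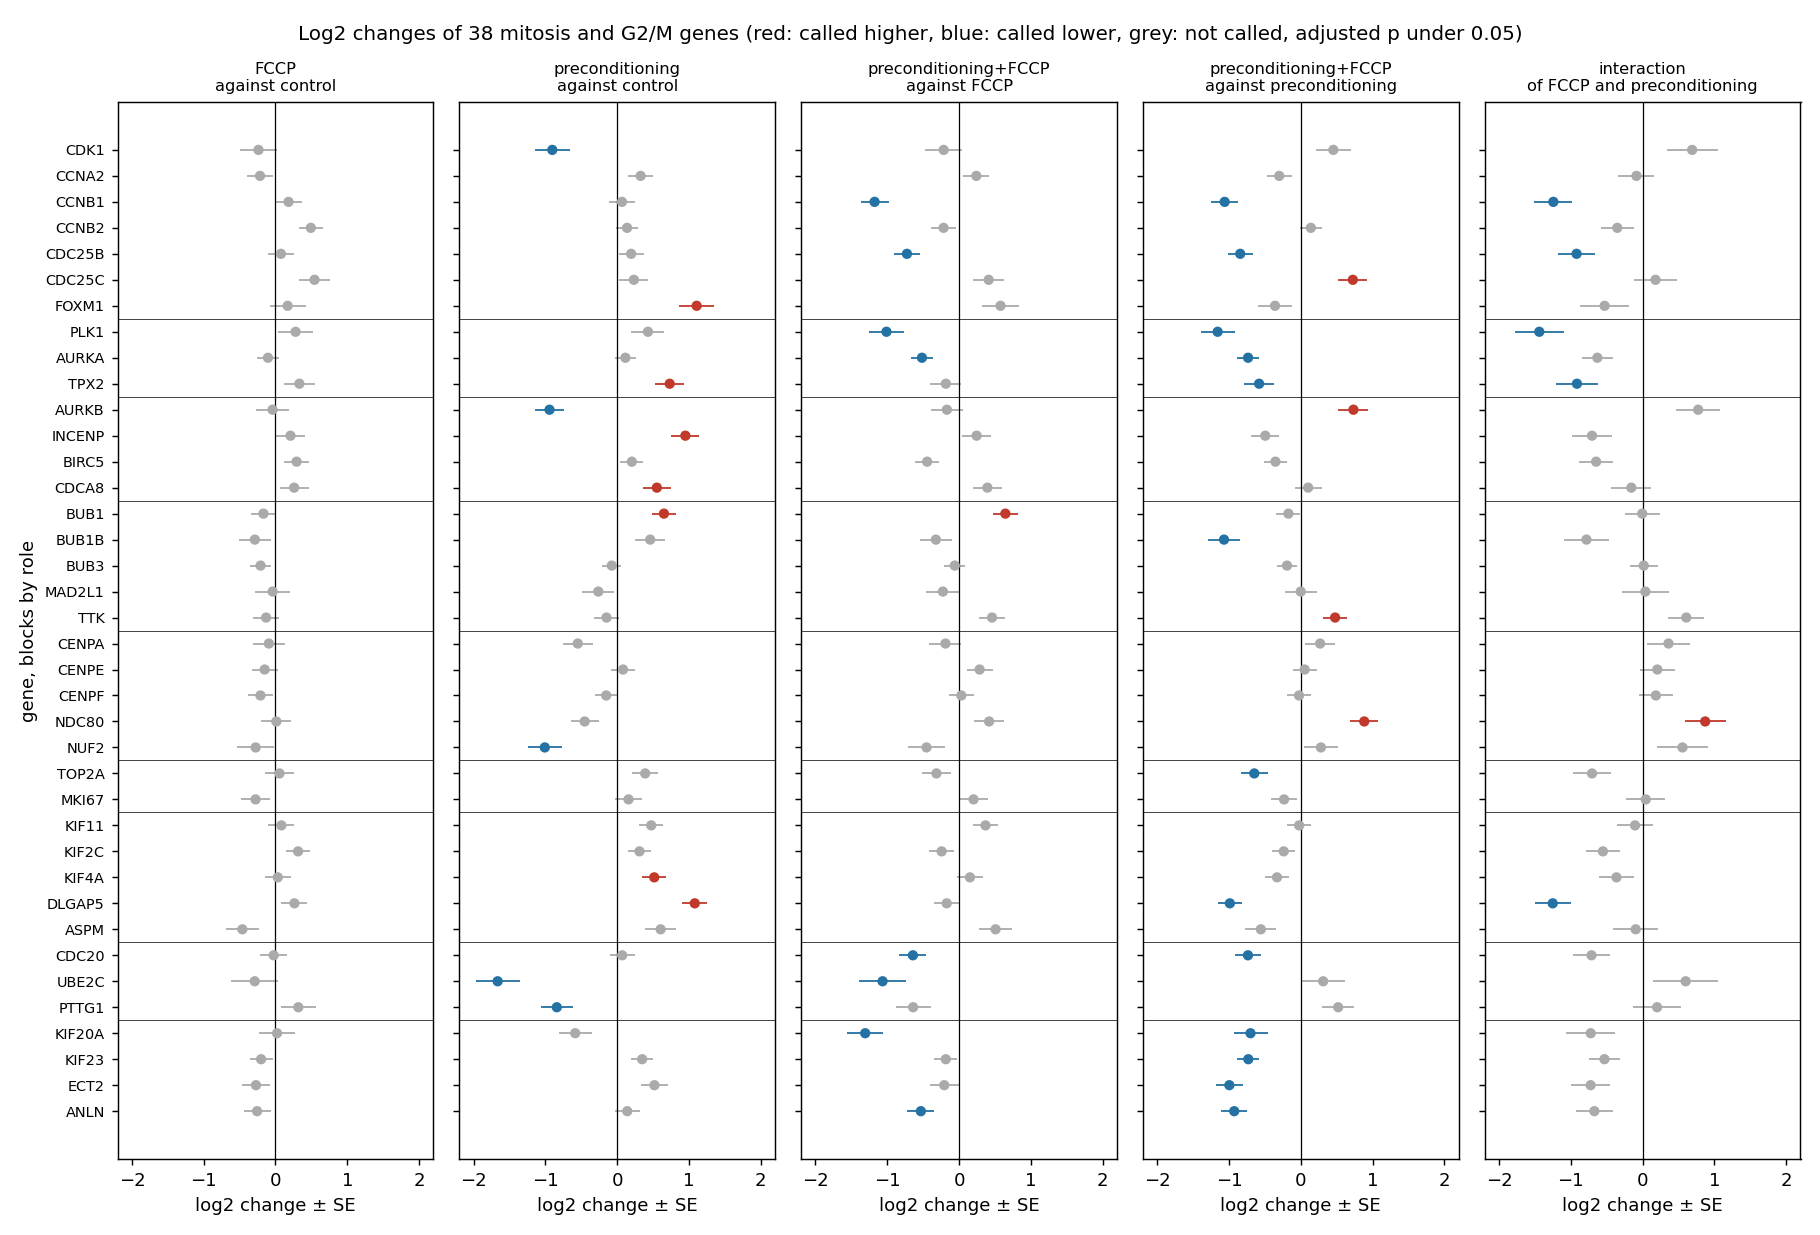
Log2 change with its standard error for each of the 38 tested genes (rows, in blocks by role) in the 4 comparisons and the interaction (panels); red points were called higher, blue points called lower and grey points not called. No gene is coloured for FCCP against control, reds and blues mix for preconditioning against control, and blue prevails in the panels with preconditioning+FCCP, where 8 of 9 and 13 of 17 calls are falls.

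The third comparison asked how preconditioned cells under FCCP differed from cells under FCCP alone. Fewer members were called than in the background, and nearly all of them fell: CCNB1, KIF20A, PLK1, CDC25B, CDC20, AURKA, UBE2C and ANLN were lower by 0.52 to 1.31 on the log2 scale, and BUB1 alone rose. The 9 calls are 23.7% of the members where 35.7% of all genes tested were called. Falls were 21.1% of members against 17.7% of all genes, and the single rise 2.63% of members against 17.9% of all genes. The median change was -0.19, against 0.01 over all genes.

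CCNB1 (ENSG00000134057), which encodes cyclin B1, had 295, 377 and 419 CPM in FCCP 1 to 3 and 182, 126 and 175 CPM in preconditioning+FCCP 1 to 3. The groups were far apart, and the level fell to 0.443 of that in FCCP (log2 change -1.18 ± 0.20, adjusted p = 0.000671). KIF20A, a kinesin of the central spindle needed for cytokinesis, had 249, 242 and 260.1 CPM in FCCP and 108, 80.4 and 116 CPM in preconditioning+FCCP (-1.31 ± 0.25, adjusted p = 0.00154). PLK1 (ENSG00000166851), the kinase that promotes mitotic entry and cytokinesis, had 133, 143 and 159.8 CPM in FCCP and 89.9, 57.5 and 69.2 CPM in preconditioning+FCCP (-1.01 ± 0.25, adjusted p = 0.0059). In each of these genes all preconditioning+FCCP libraries lay below all FCCP libraries, as the panels of single genes show.

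CDC25B, a phosphatase that starts CDK1 activation at the centrosome, had 205, 224 and 262 CPM in FCCP and 156, 132 and 131 CPM in preconditioning+FCCP (-0.73 ± 0.19, adjusted p = 0.0077). CDC20, the activator of the anaphase-promoting complex, was at 268, 248 and 260.5 CPM against 176, 143 and 177 CPM (-0.64 ± 0.19, adjusted p = 0.0156). Neither gene's groups overlapped. UBE2C (-1.06 ± 0.33), ANLN, an actin-binding protein of the cleavage furrow (-0.53 ± 0.19), and AURKA, the spindle pole kinase (-0.52 ± 0.16), fell with adjusted p from 0.0195 to 0.0391. BUB1 had 96.4, 88.7 and 78.4 CPM in FCCP and 177, 122 and 114 CPM in preconditioning+FCCP, a rise of 0.65 ± 0.18 (adjusted p = 0.0114). The fixed genes CDK1 (-0.21 ± 0.26), FOXM1 (0.58 ± 0.25), MKI67 (0.20 ± 0.20) and BUB3 (-0.06 ± 0.14) did not pass, with adjusted p from 0.0828 to 0.77.

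The groups did not overlap for 11 members with lower values, 28.9% of 38 where 21.3% of all genes did so, and for 5 with higher values, where 21.9% did so. CCNB1, CDC25B, PLK1 and KIF20A were called without each library in turn. AURKA lost its call without FCCP 3 or preconditioning+FCCP 2, BUB1 without FCCP 3 or preconditioning+FCCP 1, and CDC20 without preconditioning+FCCP 2, while UBE2C and ANLN were called in 9 and 6 of 13 such fits. The count was 5 without FCCP 3 (23.6% of all genes called) and 5 without preconditioning+FCCP 2 (23.9%). Beyond single libraries, BUB1 (0.65, adjusted p = 0.0593), AURKA and ANLN also lost their calls with the compared groups alone. There 6 members were called beside 25.5% of all genes. With the set as a term 8 members were called, 2 higher and 6 lower, where 21.7% of all genes were called. BUB1 (0.46), UBE2C (-0.35) and ANLN (-0.30) were no longer called there, and the members' median was -0.05. Without the 3 libraries that stood apart 20 members were called, 8 higher and 12 lower, where 54.7% of all genes were called. That fit leaves only higher-share FCCP and lower-share preconditioning+FCCP libraries, so it cannot separate preconditioning from the set. With library totals alone as scaling, 13 members were called, 8 higher and 5 lower, where 37.1% of all genes were called. The median over all genes then moved from 0.01 to 0.19, and AURKA, CDC20 and ANLN were no longer called. Within the higher-share set preconditioning+FCCP 3 is the one preconditioned library, taken to vary like the FCCP libraries, and edgeR called 0 of 16756 genes, with CCNB1 at -1.06, KIF20A at -1.13 and PLK1 at -1.08. Of 10 fibroblast markers 9 also fell in this comparison, and their part in the members' changes was not tested.

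**Figure D3:**
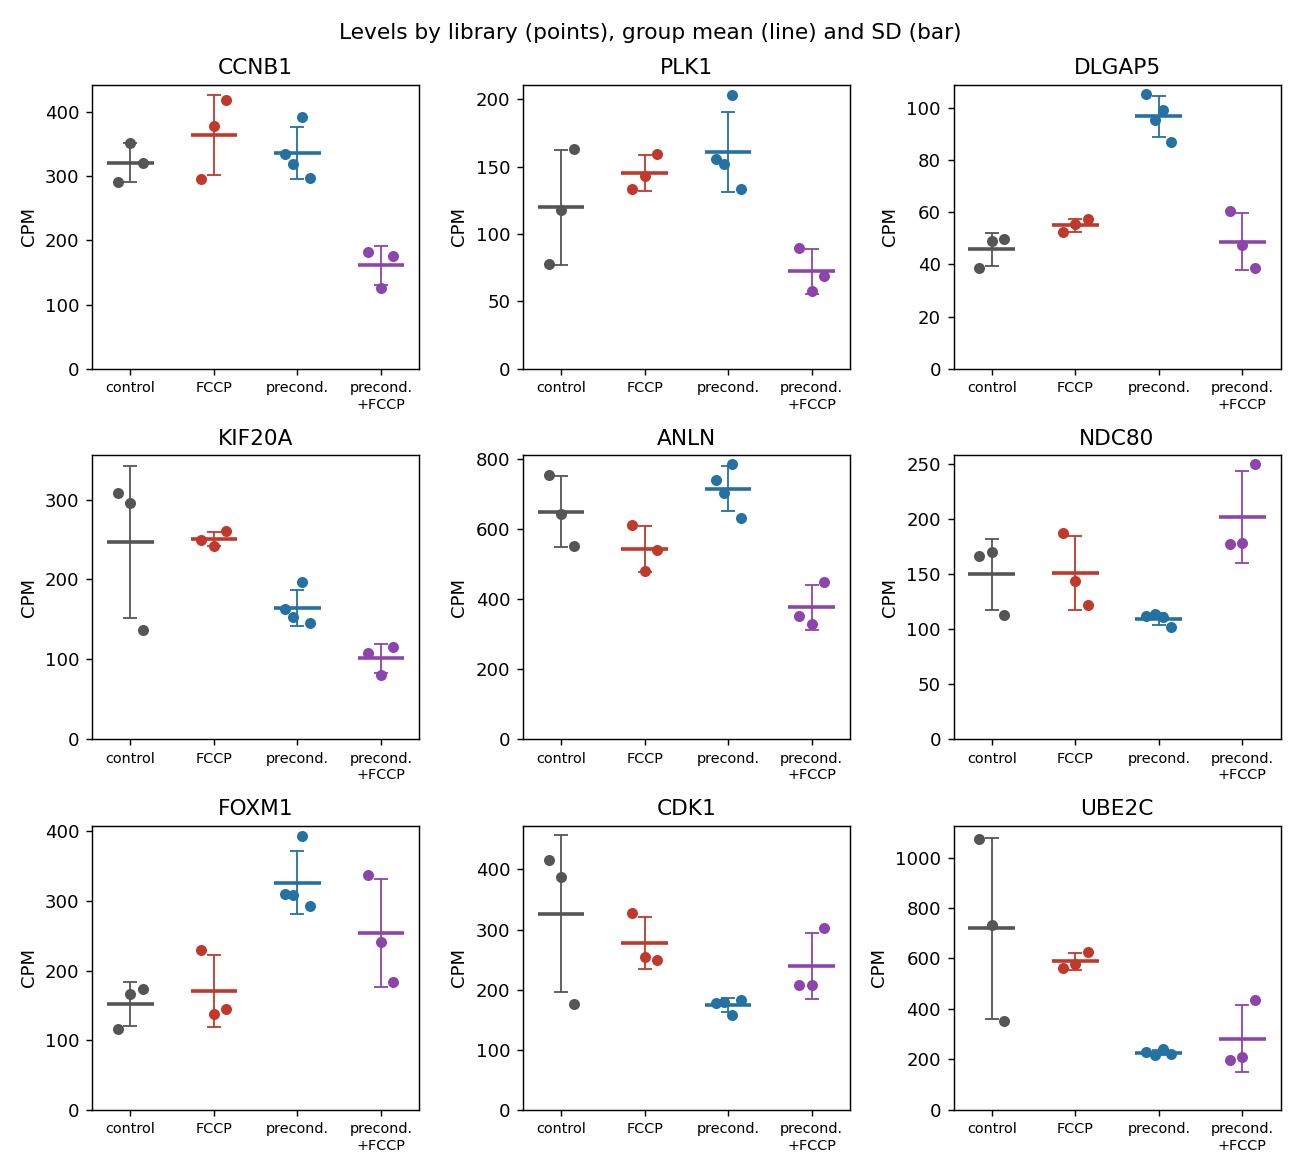
CPM of 9 genes in each library (points) by group, with the group mean (horizontal line) and SD (bar); each axis starts at 0, and the genes were chosen after their values were seen. CCNB1, KIF20A and ANLN are lowest in the 3 preconditioning+FCCP libraries, PLK1 is too except for control 1 at 78.1 CPM, DLGAP5 and FOXM1 are high in preconditioning, and CDK1 and UBE2C vary most among the controls.

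The fourth comparison set FCCP against no FCCP in preconditioned cells. It gave the most calls: 13 members fell and 4 rose. Genes of mitotic entry and of the last steps of division were among the falls, with all 3 entry and spindle pole genes (PLK1, AURKA and TPX2) and all 4 tested cytokinesis genes (ECT2, ANLN, KIF23 and KIF20A) lower. NDC80, CDC25C, AURKB and TTK rose. The 17 calls are 44.7% of members, where 39.4% of all genes tested were called. Falls were 34.2% of members against 19.2% of all genes, rises 10.5% against 20.2%, and the median change was -0.27 against 0.02.

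DLGAP5 (ENSG00000126787), at 86.8 to 105 CPM in preconditioning, had 60.3, 47.4 and 38.6 CPM in preconditioning+FCCP (-0.99 ± 0.17, adjusted p = 0.000483), beside 38.5 to 49.8 CPM in control. CCNB1 was at 335, 319, 393 and 297 CPM in preconditioning, against the 126 to 182 CPM given above (-1.06 ± 0.19, adjusted p = 0.000491). PLK1 was at 156, 152, 203 and 133 CPM in preconditioning, against 57.5 to 89.9 CPM (-1.16 ± 0.24, adjusted p = 0.00143). In these 3 genes no library of one group reached the other.

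At the other end of mitosis, ECT2, the exchange factor that activates RhoA for the contractile ring, was at 249.8, 226, 224 and 223 CPM in preconditioning and at 129, 118 and 101 CPM in preconditioning+FCCP (-0.99 ± 0.19, adjusted p = 0.000951). ANLN was at 739, 703, 786 and 632 CPM and then at 351, 328 and 449 CPM (-0.93 ± 0.18, adjusted p = 0.00107). The checkpoint kinase gene BUB1B was at 93.4, 87.6, 78.7 and 80.3 CPM and then at 53.2, 36.5 and 31.9 CPM (-1.07 ± 0.22, adjusted p = 0.00139). None of these groups overlapped, and KIF23, a motor of the centralspindlin complex, fell as well (-0.73 ± 0.15, adjusted p = 0.00176). The other falls were AURKA (-0.73), CDC25B (-0.84), CDC20 (-0.74), TOP2A, which untangles chromosomes (-0.65), KIF20A (-0.70) and TPX2 (-0.58), with adjusted p from 0.00147 to 0.0342.

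NDC80, which pairs with NUF2 in the outer kinetochore, rose from 112, 113, 111 and 102 CPM to 177, 178 and 250.2 CPM (0.88 ± 0.19, adjusted p = 0.00221). Its preconditioning+FCCP libraries were above those of preconditioning, and NUF2 itself was at 0.28 ± 0.24 and not called. CDC25C (0.72 ± 0.20, adjusted p = 0.00958), AURKB (0.73 ± 0.21, adjusted p = 0.0113) and the checkpoint kinase TTK (0.48 ± 0.17, adjusted p = 0.0372) rose too. CDC25B and CDC25C thus moved in opposite directions, as did AURKA and AURKB. CDK1 (0.45 ± 0.24), FOXM1 (-0.36 ± 0.24), MKI67 (-0.23 ± 0.19) and BUB3 (-0.19 ± 0.13) did not pass, with adjusted p from 0.15 to 0.335.

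The groups did not overlap for 16 members with lower values, 42.1% of 38 where 26.2% of all genes did so, and for 6 with higher values, where 26.6% did so. Within the lower-share set, with preconditioning+FCCP 1 and 2 against the 4 preconditioning libraries, 19 members were called, 5 higher and 14 lower, where 53% of all genes were called, and all 17 genes kept their direction and call. The count was 15 with the set as a term (40.9% of all genes called), without TPX2 and TTK, and 17 with library totals alone (38% of all genes called; 5 higher, 12 lower), without TPX2. Without the 3 libraries that stood apart it was 18, with 3 higher and 15 lower, where 49.2% of all genes were called, and TTK lost its call. With single libraries left out, AURKB lost its call without preconditioning+FCCP 3, TOP2A without preconditioning+FCCP 2, and KIF20A without that library, preconditioning 1 or preconditioning 3. TPX2 and TTK were called in 8 and 7 of 13 such fits, and the other 12 genes in every one. Fibroblast markers fell in 8 of 10 cases here, and their part in the members' changes was not tested. This comparison shares its preconditioning+FCCP libraries with the preceding one, so the falls of CCNB1, PLK1, KIF20A, CDC25B, CDC20, AURKA and ANLN in both are not independent. It shares its preconditioning libraries with preconditioning against control, so opposite changes there, as for DLGAP5, are not independent either.

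The interaction asked whether the FCCP effect differed between cells with and without preconditioning. It did so for 6 members, with the FCCP effect shifted down for CCNB1, PLK1, DLGAP5, CDC25B and TPX2 and up for NDC80. These are 15.8% of members, where 19% of all genes tested were called. Downward shifts were 13.2% of members against 9.6% of all genes, and the upward shift 2.63% against 9.38%. For PLK1 the change under FCCP was 0.28 without and -1.16 with preconditioning, an interaction of -1.44 ± 0.34 (adjusted p = 0.00914). For CCNB1 the change was 0.18 and then -1.06 (-1.24 ± 0.27, adjusted p = 0.00581), and for DLGAP5 0.26 and then -0.99 (-1.25 ± 0.25, adjusted p = 0.00394).

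CDC25B (-0.92 ± 0.25, adjusted p = 0.0208), TPX2 (-0.91 ± 0.30, adjusted p = 0.0424) and NDC80 (0.87 ± 0.28, adjusted p = 0.0418) completed the calls. Over all members the median interaction was -0.25, against 0.07 over all genes. All 4 tested cytokinesis genes had values of -0.72 to -0.53 and none was called. CDK1 (0.69 ± 0.36), FOXM1 (-0.53 ± 0.34), MKI67 (0.05 ± 0.27) and BUB3 (0.02 ± 0.20) did not pass, with adjusted p from 0.183 to 0.964. DLGAP5, CCNB1 and PLK1 kept their call without each library in turn, whereas CDC25B lost it without FCCP 3 or preconditioning+FCCP 2, and TPX2 and NDC80 were called in 4 and 3 of 13 such fits. The count ranged from 3 without preconditioning+FCCP 2 (12.2% of all genes called) to 12 without control 3 (24.1%), and was 17 without the 3 libraries that stood apart (5 upward, 12 downward), where 38.3% of all genes were called. Without those 3 libraries, preconditioning and the library set cannot be separated. With a replicate block CDC25B, TPX2 and NDC80 were not called. Of 10 fibroblast markers 7 also shifted down in the interaction, with a median of -2.04 over the 10, as did 3 of 6 smooth muscle markers, and their part in the members' interaction was not tested. No fit within a set could give the interaction, since the lower-share set holds no FCCP library and the higher-share set no preconditioning library.

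Transcript length moved with the calls for preconditioning against control. The 7 genes that rose have longest transcripts of 2469 to 4348 nucleotides in GENCODE 29 and the 5 that fell of 914 to 1969 nucleotides, so the ranges do not overlap. Across the 38 members the Pearson correlation of log2 change with log transcript length was 0.50, and across 16163 tested genes with a length it was 0.40. These genes share the same libraries and are not independent. For preconditioning+FCCP against preconditioning the correlation was -0.35 over the members and -0.16 over all genes. After a trend on length and GC content was taken out of each library, 8 members were called for preconditioning against control (5 higher, 3 lower, where 16.1% of all genes were called). Of the 12 genes 7 kept their call, and CDK1, AURKB, PTTG1, CDCA8 and KIF4A lost it. For preconditioning+FCCP against FCCP, where the correlation with length was 0.37 over the members and 0.25 over all genes, 11 members were called (1 higher, 10 lower, where 31.4% of all genes were called). Of the 9 genes 5 kept their call there, and AURKA, BUB1, CDC20 (-0.13) and UBE2C (-0.64) lost it. For preconditioning+FCCP against preconditioning 17 were called (3 higher, 14 lower, where 40.6% of all genes were called), TTK not among them. The part of length in the remaining calls was not tested.

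**Figure D4:**
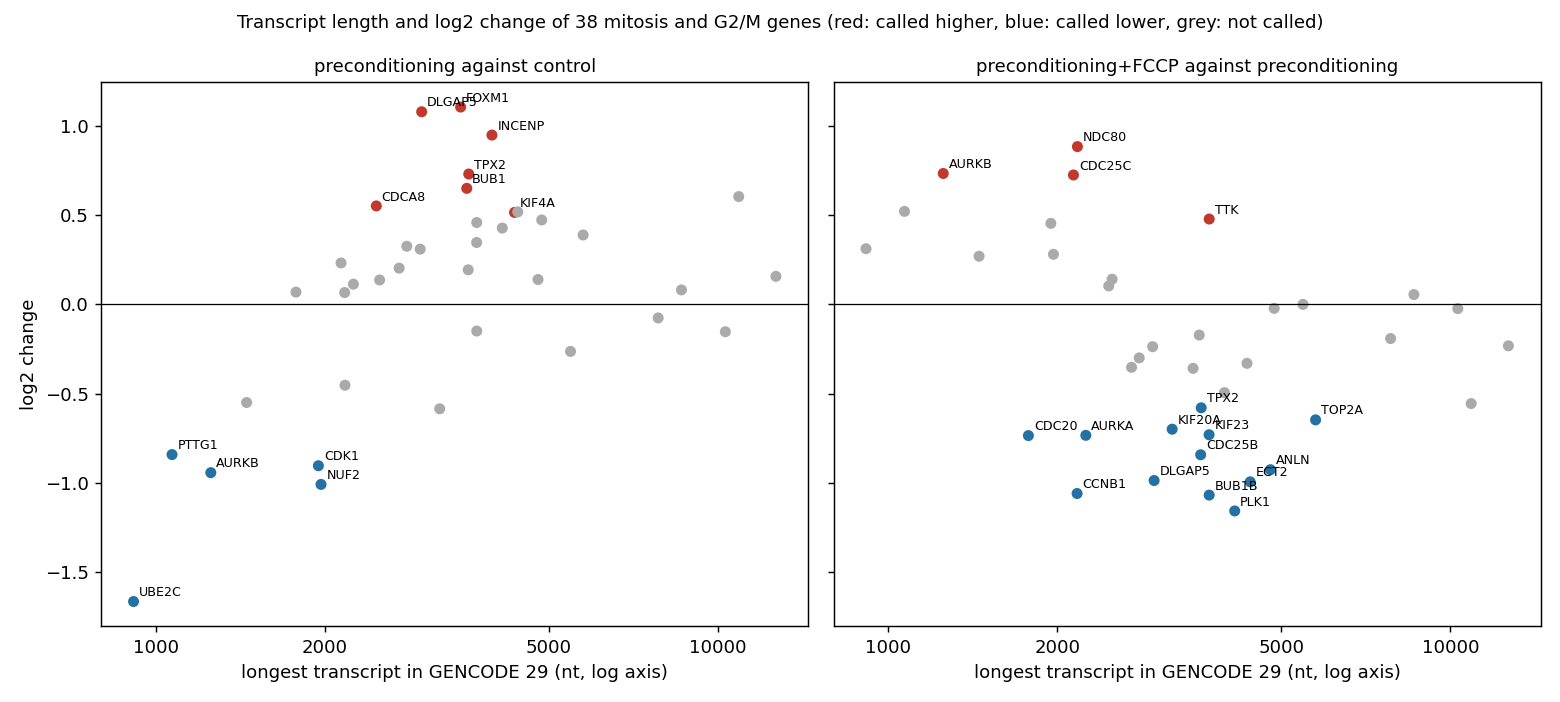
Log2 change against the length of the longest transcript in GENCODE 29 (nucleotides, log axis) for the 38 tested genes, for preconditioning against control (left) and preconditioning+FCCP against preconditioning (right); red points were called higher, blue points lower and grey points not called. On the left all called falls lie below 2000 nucleotides and all called rises above it, and on the right the 2 directions overlap in length.

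Members also varied together within groups to a limited extent. Each library's deviation from its group mean was correlated between genes over the 13 libraries, and the median of 703 pairs was 0.22, with a lowest value of -0.78. CENPA, the centromeric histone (0.88), KIF20A (0.81) and CCNA2, cyclin A2 (0.79), followed the mean of the other members most closely. INCENP (-0.13), CDC20 (-0.06) and PLK1 (-0.03) followed it least. These correlations share libraries and depth and are given as a description.

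The other cell cycle lists give the setting of these changes. In FCCP against control, 0 of 35 other G2/M regulators, 0 of 29 other kinetochore subunits, 0 of 18 condensin and cohesin genes and 0 of 12 G1 cyclins and kinases were called by edgeR, while 11, 4, 3 and 1 of them had an unadjusted p under 0.05. Of all 16756 genes 3.52% were called, and 3448 had an unadjusted p under 0.05. Single genes were called elsewhere: ANAPC11, a subunit of the anaphase-promoting complex, rose (0.85 ± 0.18, 1 of 16), the repressor E2F6 fell (-0.88 ± 0.22, 1 of 23) and the replicative polymerase POLE fell (-1.24 ± 0.19, 1 of 33 S-phase genes). Of 16 CDK inhibitors and growth arrest genes 2 rose: GADD45B, from 62.5, 94.6 and 62.9 CPM to 223, 266 and 311 CPM (1.86 ± 0.35), and GADD45G, from at most 0.125 CPM to between 0.527 and 2.14 CPM. Both encode stress-induced proteins that can bind the CDK1 complex.

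For preconditioning against control, where 10.5% of all genes rose and 13% fell, condensin and cohesin genes rose in 8 of 18 cases and fell in 0, among them SMC1A (0.80 ± 0.16), NCAPG2 (0.72 ± 0.16) and SMC2 (0.68 ± 0.16). Other kinetochore subunits fell in 12 of 29 cases and rose in 3, with CENPW (-1.80 ± 0.28), CENPT (-1.22 ± 0.22) and CENPK (-0.92 ± 0.20) lower. Other G2/M regulators split 5 to 4, with the CDK-binding CKS2 (-1.10 ± 0.23) and the phosphatase CDKN3 (-0.99 ± 0.24) lower and CKAP2L (0.75 ± 0.18) higher. S-phase genes rose in 6 of 33 cases and fell in 3, with the helicase subunit MCM2 highest (1.37 ± 0.20). Subunits of the anaphase-promoting complex fell in 4 of 16 cases and rose in 2. The DREAM, MuvB and E2F list split 2 to 2 of 23, with the pocket protein RBL2 higher (0.96 ± 0.22), and G1 genes 2 to 2 of 12. Of the CDK inhibitors and growth arrest genes 1 rose and 4 fell, GADD45B among them (-1.16 ± 0.32). Over all genes 23.6% were called for preconditioning against control, but 2.74% with the library set as a term and 9.33% without control 1. The list counts given here are from the main fit only. The part of the library set and of transcript length in them was not tested.

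In preconditioning+FCCP against FCCP, where 17.9% of all genes rose and 17.7% fell, S-phase genes split 7 to 7 of 33, with thymidine kinase TK1 (-1.57 ± 0.25) lower and the chromatin assembly subunit CHAF1A (0.76 ± 0.16) higher. DREAM, MuvB and E2F genes rose in 8 of 23 cases and fell in 1, with E2F6 (1.10 ± 0.22), RBL1 (1.03 ± 0.21) and LIN52 (1.05 ± 0.22) higher. The same FCCP libraries serve in FCCP against control, so the opposite change of E2F6 there is not independent. Condensin and cohesin genes rose in 6 of 18 cases, the release factor WAPL among them (1.20 ± 0.20), and fell in 1. Kinetochore subunits split 7 higher to 6 lower, with CENPM (-1.40 ± 0.19) and CENPI (-1.38 ± 0.23) lower and MIS12 (1.15 ± 0.17) higher. Other G2/M regulators split 3 to 1 of 35, so that calls were fewer than over all genes, and the anaphase-promoting complex split 2 to 3 of 16. CCNE2, cyclin E2, was the 1 of 12 G1 genes called (1.44 ± 0.26). Of the growth arrest list 1 rose and 3 fell, with CDKN2A (-1.44 ± 0.27) among the latter.

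In preconditioning+FCCP against preconditioning, where 20.2% of all genes rose and 19.2% fell, S-phase genes fell in 14 of 33 cases and rose in 7, with MCM2 (-1.44 ± 0.20) and RRM2, a subunit of ribonucleotide reductase (-1.61 ± 0.23), among the falls. Growth arrest genes rose in 7 of 16 cases and fell in 2: GADD45B went from 29.8 to 37.0 CPM in preconditioning to 100.5, 175 and 391 CPM (2.76 ± 0.33), and BTG1 rose by 1.51 ± 0.23. Condensin and cohesin genes fell in 5 of 18 cases and rose in 1, with SMC2 (-0.91 ± 0.16), NCAPD2 (-0.95 ± 0.18) and NCAPG2 (-0.80 ± 0.16) lower. The same preconditioning libraries serve in preconditioning against control, so the opposite changes there of SMC2, NCAPG2 and MCM2 are not independent. Kinetochore subunits rose in 7 of 29 cases and fell in 3, with SKA1 (1.37 ± 0.22) and CENPQ (1.76 ± 0.29) higher and CENPI lower (-2.28 ± 0.23). CENPI was at 99.2 to 122 CPM in preconditioning and at 20.2 to 26.1 CPM in preconditioning+FCCP. Other G2/M regulators split 5 to 5 of 35, the anaphase-promoting complex 6 to 2 of 16, the DREAM, MuvB and E2F list 6 to 3 of 23 (RBL2 at -1.64 ± 0.23) and G1 genes 3 to 4 of 12 (CDK4 at -1.49 ± 0.29).

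The interaction, called upward for 9.38% and downward for 9.6% of all genes, was called for 2 of 35 other G2/M regulators, both shifted down: HMMR, a spindle-binding protein (-1.06 ± 0.30), and FAM83D (-1.04 ± 0.35). It was called for 3 of 18 condensin and cohesin genes, all downward, led by NCAPD2 (-1.09 ± 0.25). Other lists leaned upward. Of 29 other kinetochore subunits 5 shifted up and 2 down, and of 23 DREAM, MuvB and E2F genes 4 up and 1 down. Of 16 anaphase-promoting complex genes 2 shifted up and 0 down. Growth arrest genes split 1 to 1 of 16, and 0 of 12 G1 genes were called. Among 33 S-phase genes 4 shifted up and 5 down, with RRM2 (-1.63 ± 0.32) and the helicase subunit MCM7 (-1.28 ± 0.27) among the latter. CDKN1A, which encodes the CDK inhibitor p21, was at 178 to 203 CPM in control, 226 to 290.0 in FCCP, 225 to 331 in preconditioning and 162 to 281 in preconditioning+FCCP. It was called only for preconditioning against control among the 5 comparisons, where it rose (0.59 ± 0.20, adjusted p = 0.043), and its interaction was -0.71 ± 0.29 (adjusted p = 0.0926).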

How the data were processed

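The authors deposited unnormalized read counts per gene for 13 AC16 libraries. The submitters' processing notes name HISAT2, HTSeq and build hg19. The annotation release and the strand setting were not given in the sources used here; overlapping antisense genes may therefore share reads, and no coordinates of the counted genes are printed. Library sizes exclude 5 summary rows per library, among them unassigned reads outside genes (2.13% to 5.20% of all reads), reads over several genes (11.0% to 12.4%) and multi-mapped reads (3.16% to 11.5%).

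The 40 genes were matched by symbol, with 1 ID each, among 42338 IDs with symbols. Genes passing edgeR's default filter on low counts (16756) were scaled with TMM factors and fitted over all 13 libraries with a term per group (edgeR 4.0.16, R 4.3.3). Differences were tested with edgeR's quasi-likelihood test, with Benjamini-Hochberg adjustment over all genes tested, and called at an adjusted p under 0.05. The SE was obtained from the log2 change and the square root of the F statistic. CPM are counts relative to the TMM-scaled library size, and log2 CPM means use a prior count of 2. In simulated counts for 16756 genes with 200 changed, 25% to 40% of genes changed 2-fold and 68% to 79% of genes changed 4-fold were recovered, over 4 comparisons. In the data 590, 3950, 5976 and 6594 genes were called in these comparisons, in the order of the text. The simulation differs from the data in this, and its genes were drawn from all levels. Its shares therefore do not tell how many member changes would be missed.

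The members and lists were chosen with earlier results of these data known. The text gives in full up to 6 called members per comparison with the smallest adjusted p (the 2 with the smallest p where fewer than 2 were called), with CDK1, CCNB1, FOXM1, MKI67 and BUB3 in each, and up to 3 called genes per pathway list, of which 1 is not reported here. Alternatives were DESeq2 (1.42.0), limma-voom (limma 3.58.1), other scaling, thresholds and filters, the compared groups alone, a replicate block, a term for the library set, and libraries left out. Fits within each library set, and a trend on transcript length and GC content, were added after the data were seen.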

Additional observations from a re-analysis of the deposited data

Results flagged for a closer look

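For 6 members the FCCP effect differed between cells with and without preconditioning by a test of the difference itself (edgeR interaction): the log2 values were -1.24 for CCNB1, -0.92 for CDC25B, -1.44 for PLK1, -0.91 for TPX2, -1.25 for DLGAP5 and 0.87 for NDC80. These are 15.8% of the members, where 19% of all genes tested were called. CDC25B, TPX2 and NDC80 kept the call in 11, 4 and 3 of 13 fits with a library left out, and lost it with a replicate block. In the 4 preconditioning libraries, the only group large enough for a test of single samples, ECT2 was at 249.8 CPM in preconditioning 1, apart from the next library at 226 CPM. The gap was 0.875 of the group's range, above Dixon's 95% critical value for 4 samples. Chance marks about 1 in 20 groups in this way, and 40 genes were looked at.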

How the results depend on the processing

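Over 26 settings, no member called in the main fit changed sign. The 17 calls for preconditioning+FCCP against preconditioning stayed within 1.5 times that count in each setting run. For FCCP against control the count of called members was 0, and 1 by DESeq2 (7.91% of all genes called), 1 with the library set as a term (UBE2C, -0.57; 5.6% of all genes) and 4 without control 3, FCCP 1 and preconditioning+FCCP 3 (18.6%). Without these 3 libraries it was 20 for preconditioning against control (12 in the text; 49.7% of all genes), 20 for preconditioning+FCCP against FCCP (9; 54.7%), where 8 were higher and 12 lower in place of 1 and 8, and 17 for the interaction (6; 38.3%). At an adjusted p under 0.01 these counts were 6, 4 and 3, where 8.5%, 18.9% and 7.17% of all genes were called. The interaction had 12 calls by DESeq2 (24.1% of all genes), 15 with the set as a term (26.9%) and 11 with the length and GC trend taken out (20.2%), preconditioning against control 2 with the set as a term (2.74%), and preconditioning+FCCP against FCCP 0 within the higher-share set, where 1 library stands for a group. The cause of these shifts was not tested. Without the 3 libraries, all control and FCCP libraries left are in the higher-share set and all preconditioned ones in the lower-share set. That fit cannot separate preconditioning from the set. With each library left out in turn the counts ranged from 0 to 0 for FCCP against control, 5 to 18 for preconditioning against control, 5 to 12 for preconditioning+FCCP against FCCP, 14 to 21 for preconditioning+FCCP against preconditioning and 3 to 12 for the interaction.

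No pairing by replicate number was seen: over 18 same-numbered pairs the correlation of deviations was -0.20 to 0.16, 1 of them over 0.1, and 2 of 13 libraries correlated best with their own number. Such correlations cannot exclude a shared culture or day, since the libraries that stood apart bear different replicate numbers in different groups. With a replicate block the counts were 0, 7, 7, 15 and 3 in the order of the comparisons, where 0.316%, 11%, 29.3%, 29.9% and 11.3% of all genes were called.

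Over all 38 members, values that were not called in the main fit changed sign 177 times in 123 pairs of a comparison and a setting, at most 8 times in 1 pair. Values called in another fit are among them. MAD2L1, preconditioning against control, was 0.59 within the lower-share set, where control 3 is the one control, but -0.57 without the 3 libraries. Among the members named in full 26 changes of sign occurred, all of BUB3, MKI67, CDK1, FOXM1 or CCNB1. BUB3, preconditioning against control, was 0.039 and BUB3, preconditioning+FCCP against FCCP, 0.12 with library totals. BUB3, interaction of FCCP and preconditioning, was -0.0080 without a filter, -0.0050 with the replicate block, -0.042 without the 3 libraries, -0.12 with the trend taken out and -0.044 to 0.058 with single libraries left out. MKI67, interaction of FCCP and preconditioning, was -0.025 with the block and -0.17 to 0.17 with single libraries left out. CDK1, preconditioning+FCCP against FCCP, was 0.35 with the set as a term and 0.11 within the higher-share set, where BUB3, preconditioning+FCCP against FCCP, was 0.042. FOXM1, FCCP against control, was -0.030 without the 3 libraries and -0.11 to 0.30 with single libraries left out. For CCNB1, preconditioning against control, that range was -0.018 to 0.14, and for MKI67, preconditioning+FCCP against FCCP, -0.011 to 0.31. With the trend taken out, MKI67, FCCP against control, was 0.027, BUB3, FCCP against control, 0.075, MKI67, preconditioning against control, -0.40, MKI67, preconditioning+FCCP against FCCP, -0.25, and MKI67, preconditioning+FCCP against preconditioning, 0.17.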
